A study of Homo sapiens with 12 samples.

Results

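A set of 42 genes of S phase and DNA replication was followed across 12 Affymetrix arrays of mantle cell lymphoma cells. The genes were taken from a list of replication factors, and each was read by 1 probe set with a single gene symbol. Where a gene had several, the brightest on average over the 12 arrays was taken (mean log2 signal). All 42 were among the 19775 genes with such a probe set, and all 42 were among the 11548 genes whose mean signal reached the detection filter of 12.55. The cells were 2 established human lines. In Z-138 the labels give a nonsense change of TRAF2, while Maver-1 is given with TRAF3 deletion. Each line carried, under puromycin selection, a doxycycline-inducible hairpin in 3 versions. NIKsh#1 and NIKsh#2 target MAP3K14, the gene of NIK, a kinase at the head of alternative NF-kB signalling. NTC is a non-targeting control. Each of the 6 cultures was kept for 7 days with 100 ng/ml doxycycline and, in parallel, without it, and gave 1 array per condition. There were thus 4 NIKsh cultures and 2 NTC cultures, and each genotype was represented by 1 line. The p-values therefore reflect only how these cultures vary among themselves.

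Replication of the genome begins with licensing. The origin recognition complex, with CDC6 and CDT1, loads the MCM2 to MCM7 helicase on DNA in G1, and CDC45 and the GINS complex then turn the loaded ring into an active helicase. Polymerases, a sliding clamp and its loaders copy the strands, while other enzymes supply nucleotides and assemble chromatin behind the fork. Many of these genes are transcribed around the G1/S border under E2F factors, so their mRNA is high in dividing cells, and mantle cell lymphoma, with its cyclin D1 translocation, is known for disturbed control of that step.

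The deposited signals had been scaled by the authors, and the trimmed mean of every array was 149.98. Values below are linear signals, or differences of log2(signal + 3), which understate the change of dim genes, and signals of different genes are not compared because each probe set has its own response. Of the B cell and mantle cell lymphoma markers 7 of 8 were measured and all 7 passed the detection filter, with a summed signal of 6552 to 10993. The T and NK cell markers had 2 of 7 genes above the filter and a summed signal of 16.7 to 214.7, and the monocyte markers 1 of 6 and 14.4 to 34.1. The fibroblast, epithelial and endothelial markers had 5 of 8 genes above the filter, with a summed signal of 203.7 to 1236.5. Among these EPCAM had a signal of 1.3 to 3.8 in Z-138 and 173.0 to 314.4 in Maver-1, KRT18 1.5 to 11.1 in Z-138 and 54.9 to 88.2 in Maver-1, and PECAM1 44.8 to 397.0 in Z-138 and 549.7 to 929.1 in Maver-1. COL1A1 ran the other way, at 76.1 to 244.2 in Z-138 and 20.6 to 46.9 in Maver-1, while VWF and DCN were at or below 8.2 on every array. EPCAM, KRT18, PECAM1 and COL1A1 thus separate the 2 lines. Markers of the other lists did so too. CD3G was at 56.6 to 177.5 in Z-138 and 0.8 to 7.2 in Maver-1. CCND1, cyclin D1, was at 496.7 to 1264.0 in Z-138 and 2599.8 to 3030.6 in Maver-1. SOX11 was at 1712.2 to 3023.8 in Z-138 and 455.5 to 1382.2 in Maver-1. The part of all these genes in the line differences below was not tested. The signal of MAP3K14 was 33.3 with and 55.2 without doxycycline in Z-138 NIKsh#1, 49.2 and 52.0 in Z-138 NIKsh#2, 63.4 and 86.9 in Maver-1 NIKsh#1, and 55.7 and 79.3 in Maver-1 NIKsh#2. Under NTC it was 55.4 with and 46.4 without doxycycline in Z-138, and 132.7 and 77.2 in Maver-1. The target was thus lower with doxycycline in all 4 NIKsh cultures and in neither NTC culture, but its mean NIKsh change of -0.42 ± 0.18 (SE) did not pass in limma (adjusted p = 0.529). The ratio of 3′ over 5′ signal of ACTB, which grows where RNA is degraded or amplified from its 3′ end, lay between 4.62 and 6.34 with and between 2.33 and 2.92 without doxycycline in Z-138. In Maver-1 it lay between 3.8 and 4.43 with and between 3.66 and 6.88 without doxycycline.

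One feature that the choice of the genes did not use is the E2F motif, searched as TTTCCCGC, TTTCGCGC, TTTGCCGC and TTTGGCGC on both strands of the 250 bases before each start site (RefSeq sequences, GRCh38.p14). A promoter was at hand for 36 of the 42 genes, and 13 of these 36 (36.1%) held a match, against 589 of 15842 promoters of protein-coding genes (3.72%). With the first 50 bases after the start included, 19 of 36 (52.8%) held one, against 703 of 15842 (4.44%). A match is a run of letters and not a shown binding site. Promoters of 5 genes on which the results below turn, or which carry the motif most often, are printed 5′ to 3′ on the strand of the gene, with motif letters in capitals. They lie at chr2:135876444-135876693 (minus strand) for MCM6, chr7:100101398-100101647 (minus) for MCM7, chr16:85688955-85689204 (minus) for GINS2, chr13:33817899-33818148 (plus) for RFC3 and chr10:13161308-13161557 (plus) for MCM10.
MCM6: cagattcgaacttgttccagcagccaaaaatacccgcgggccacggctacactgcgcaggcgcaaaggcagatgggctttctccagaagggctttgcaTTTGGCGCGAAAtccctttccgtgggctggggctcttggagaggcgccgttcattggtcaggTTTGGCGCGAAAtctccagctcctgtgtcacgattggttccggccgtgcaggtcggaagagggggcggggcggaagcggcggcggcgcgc
MCM7: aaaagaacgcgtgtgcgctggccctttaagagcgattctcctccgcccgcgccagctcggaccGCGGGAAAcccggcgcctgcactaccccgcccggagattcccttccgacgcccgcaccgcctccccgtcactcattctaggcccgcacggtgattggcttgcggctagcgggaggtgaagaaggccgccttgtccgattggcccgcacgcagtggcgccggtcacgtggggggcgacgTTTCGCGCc
GINS2: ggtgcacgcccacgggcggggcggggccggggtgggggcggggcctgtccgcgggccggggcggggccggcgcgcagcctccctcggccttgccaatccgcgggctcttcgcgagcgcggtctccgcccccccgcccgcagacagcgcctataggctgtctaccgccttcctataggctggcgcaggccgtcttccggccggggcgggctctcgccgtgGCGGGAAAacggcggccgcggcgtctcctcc
RFC3: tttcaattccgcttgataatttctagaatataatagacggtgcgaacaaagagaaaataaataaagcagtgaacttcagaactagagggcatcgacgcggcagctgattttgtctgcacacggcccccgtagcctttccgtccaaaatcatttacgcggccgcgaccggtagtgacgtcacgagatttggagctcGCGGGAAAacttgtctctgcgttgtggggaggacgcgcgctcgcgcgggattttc
MCM10: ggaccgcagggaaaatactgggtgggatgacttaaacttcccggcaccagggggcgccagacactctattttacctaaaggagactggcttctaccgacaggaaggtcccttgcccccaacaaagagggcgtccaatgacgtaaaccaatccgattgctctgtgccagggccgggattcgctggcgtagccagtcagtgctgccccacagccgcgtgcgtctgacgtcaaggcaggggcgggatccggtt
The MCM6 promoter held 4 matches in overlapping pairs, beginning 152, 148, 90 and 86 bases before the start site. The MCM7 promoter held 2 matches, at 187 and 9 bases, while GINS2 and RFC3 held 1 each, at 31 and 55 bases. The MCM10 window held none of these letters.

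The first comparison asked what happened to replication genes when the NIK hairpins were induced. None of the 42 genes passed in the 4 NIKsh cultures (limma, adjusted p under 0.05, smallest adjusted p = 0.332), where 0.0433% of all genes did. At an unadjusted p under 0.05 there were 3 of 42 genes, against 8.98% of all genes. The log2 changes lay between -0.43 for MCM10 and 0.30 for CCNE1, with a median of -0.07 (all genes 0.01). Of the 42, 33 were below 0 and 9 above it, where 51.7% of all genes were above 0. That count leans on single cultures. Without Z-138 NIKsh#1 18 of the 42 were above 0, and without Maver-1 NIKsh#2 17 were. The intervals also show what the design could see. For 35 of the 42 genes the 95% interval of the change lay wholly within 1.5-fold in either direction, for 7 it reached past 1.5-fold lower, and for 0 past 1.5-fold higher. On RNA of whole cultures, fewer cells in S phase and less of a transcript per cell cannot be told apart.

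**Figure D1:**
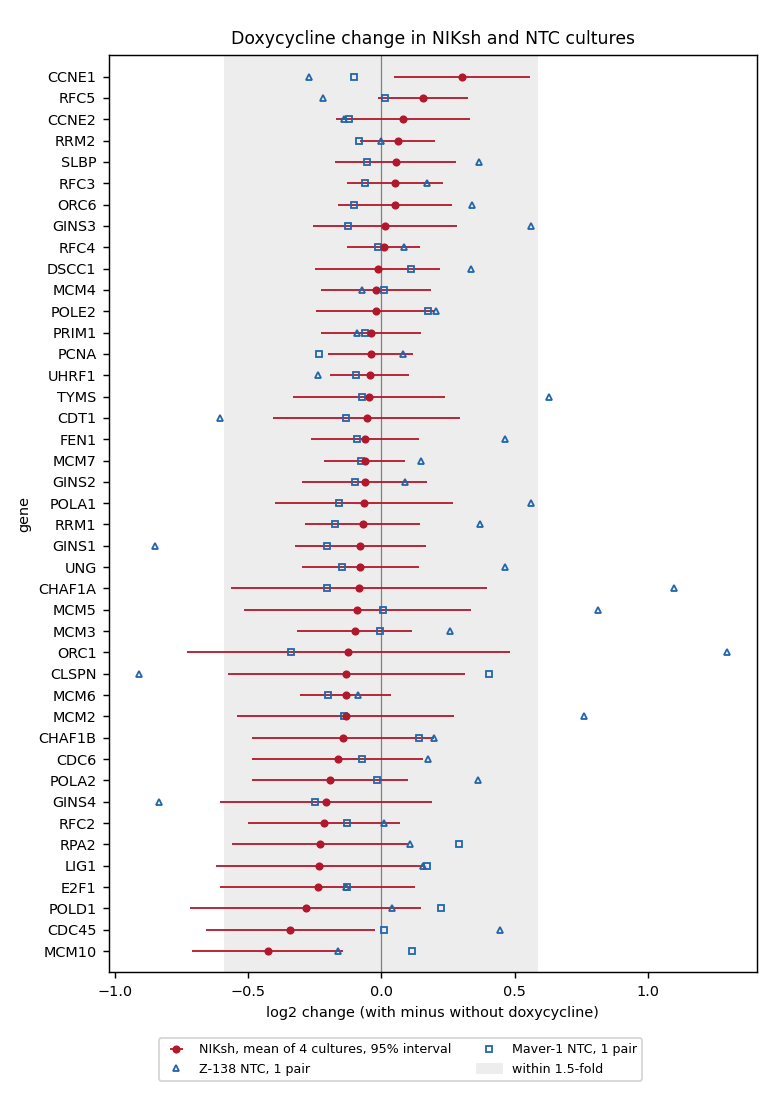
Log2 change with doxycycline of the 42 genes, ordered by their mean in NIKsh cultures. Filled circles are the limma mean of 4 NIKsh cultures with its 95% interval, open triangles the single pair of Z-138 NTC, open squares the single pair of Maver-1 NTC, and the grey band spans 1.5-fold either way. The intervals of 35 genes stay inside the band, and the Z-138 NTC triangles of ORC1 and CHAF1A lie beyond it, at 1.30 and 1.10.

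MCM10, which helps the loaded helicase to open DNA at origins, had the lowest mean change. Its signal was 834 with and 1012 without doxycycline in Z-138 NIKsh#1, 571 and 921 in Z-138 NIKsh#2, 431 and 456 in Maver-1 NIKsh#1, and 267 and 423 in Maver-1 NIKsh#2. In NTC cultures it was 952 with and 1064 without doxycycline in Z-138, and 440 and 406 in Maver-1. The lowest changes were thus in NIKsh#2 of both lines, at -0.69 and -0.66, with -0.28 and -0.08 in NIKsh#1, and the range of the NIKsh cultures took in the Z-138 NTC change of -0.16. The mean of -0.43 ± 0.13 did not pass (limma, adjusted p = 0.332). Its other 2 detected probe sets were each positive in 1 NIKsh culture, at 0.12 in Z-138 NIKsh#2 and at 0.06 in Maver-1 NIKsh#1. CDC45, a subunit of the active helicase, came next with a mean of -0.34 ± 0.14 (limma, adjusted p = 0.503). Its signal was 324 with and 554 without doxycycline in Z-138 NIKsh#1, 562 and 542.5 in Z-138 NIKsh#2, 460 and 589.5 in Maver-1 NIKsh#1, and 432.5 and 529 in Maver-1 NIKsh#2. In NTC cultures CDC45 was at 718 with and 526 without doxycycline in Z-138, and at 551 and 546 in Maver-1. POLD1, the catalytic subunit of polymerase delta, was dim, at 50.1 with and 88.8 without doxycycline in Z-138 NIKsh#1 and 92.6 and 77.9 in Z-138 NIKsh#2. In Maver-1 it was at 61.3 with and 70.7 without doxycycline in NIKsh#1 and at 51.2 and 68.0 in NIKsh#2. Its mean of -0.28 ± 0.19 came mainly from Z-138 NIKsh#1 and had the opposite sign in Z-138 NIKsh#2.

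At the other end, CCNE1, cyclin E1, which with CDK2 drives entry into S phase, had the highest mean change at 0.30 ± 0.12 (limma, adjusted p = 0.45). Its signal was 603 with and 523 without doxycycline in Z-138 NIKsh#1, 829 and 577 in Z-138 NIKsh#2, 711.4 and 712.9 in Maver-1 NIKsh#1, and 887 and 633 in Maver-1 NIKsh#2. Again the change was largest in NIKsh#2 of both lines, at 0.52 and 0.49. In Z-138 NIKsh#2, where MCM10 also had its lowest change, MAP3K14 fell least of the 4 NIKsh cultures, to 49.2 from 52.0. In Maver-1 NIKsh#2 MAP3K14 fell to 55.7 from 79.3. Each is 1 pair of arrays, and a link of these changes to MAP3K14 was not tested. In NTC cultures CCNE1 was at 477 with and 576 without doxycycline in Z-138, and at 721 and 774 in Maver-1. CCNE2, cyclin E2, averaged 0.08 ± 0.11, with cultures between -0.26 and 0.37, and that sign rests on 1 culture, since the mean is -0.02 without Maver-1 NIKsh#1. RFC5, a small subunit of the clamp loader, was higher in all 4 NIKsh cultures, by 0.08 to 0.30, with a mean of 0.16 ± 0.08. That sign belongs to 1 probe set, because its other 2 gave means of -0.25 and -0.14 and the mean of all probe sets gave -0.08.

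By role, the medians of the NIKsh change were -0.10 for 10 licensing genes, -0.14 for 6 helicase activation genes, -0.06 for 5 priming and polymerase genes and -0.01 for 7 clamp, loader and RPA genes. They were -0.15 for FEN1 and LIG1, which finish Okazaki fragments, -0.06 for 4 genes of nucleotide supply and uracil removal, -0.06 for 4 genes of chromatin and histone supply, and -0.03 for 4 regulators. None of these roles held a gene that passed in either direction. Among licensing genes the mean changes of the core helicase were -0.02 for MCM4, -0.06 for MCM7, -0.09 for MCM5, -0.10 for MCM3 and -0.13 for MCM2 and MCM6. Single cultures went both ways. The change of MCM2 under NIKsh#1 and NIKsh#2 was -0.38 and 0.44 in Z-138 and 0.07 and -0.66 in Maver-1, and that of MCM5 was -0.52 and 0.53 in Z-138 and 0.06 and -0.43 in Maver-1. PCNA, the sliding clamp, was at -0.04 ± 0.07 with an interval of -0.20 to 0.12. RRM2, the small subunit of ribonucleotide reductase, was at 0.06 ± 0.06 with an interval of -0.08 to 0.20, and RFC4, another subunit of the clamp loader, at 0.01 ± 0.06. For such genes a change of 1.5-fold over the 4 cultures lies outside the interval.

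Signs that held across cultures were few. MCM10, GINS4, a subunit of the GINS complex, and POLA2, the regulatory subunit of polymerase alpha, were lower with doxycycline in all 4 NIKsh cultures, which makes 3 of 42 genes against 8.29% of all genes. These signs are those of the probe set used. Other detected probe sets of MCM10 were positive in 1 culture each, as given above, and 1 of GINS4 was at 0.06 in Maver-1 NIKsh#2. RFC5 alone was higher in all 4, 1 of 42 against 9.95% of all genes. POLA2 was the 1 gene of these whose NIKsh changes, -0.32 to -0.06, also lay below both NTC changes, 0.36 in Z-138 and -0.02 in Maver-1. How many of all genes do so was not counted, so this is no result about POLA2. Its signal was 178 with and 217.5 without doxycycline in Z-138 NIKsh#1, 255 and 266 in Z-138 NIKsh#2, 265 and 285 in Maver-1 NIKsh#1, and 230 and 288 in Maver-1 NIKsh#2. The mean change of POLA2, -0.19 ± 0.13, did not pass (limma, adjusted p = 0.747), and its other detected probe set averaged -0.01. That probe set was positive in Z-138 NIKsh#2 (0.13) and Maver-1 NIKsh#1 (0.115). It was negative in Z-138 NIKsh#1 (-0.135) and Maver-1 NIKsh#2 (-0.149).

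**Figure D2:**
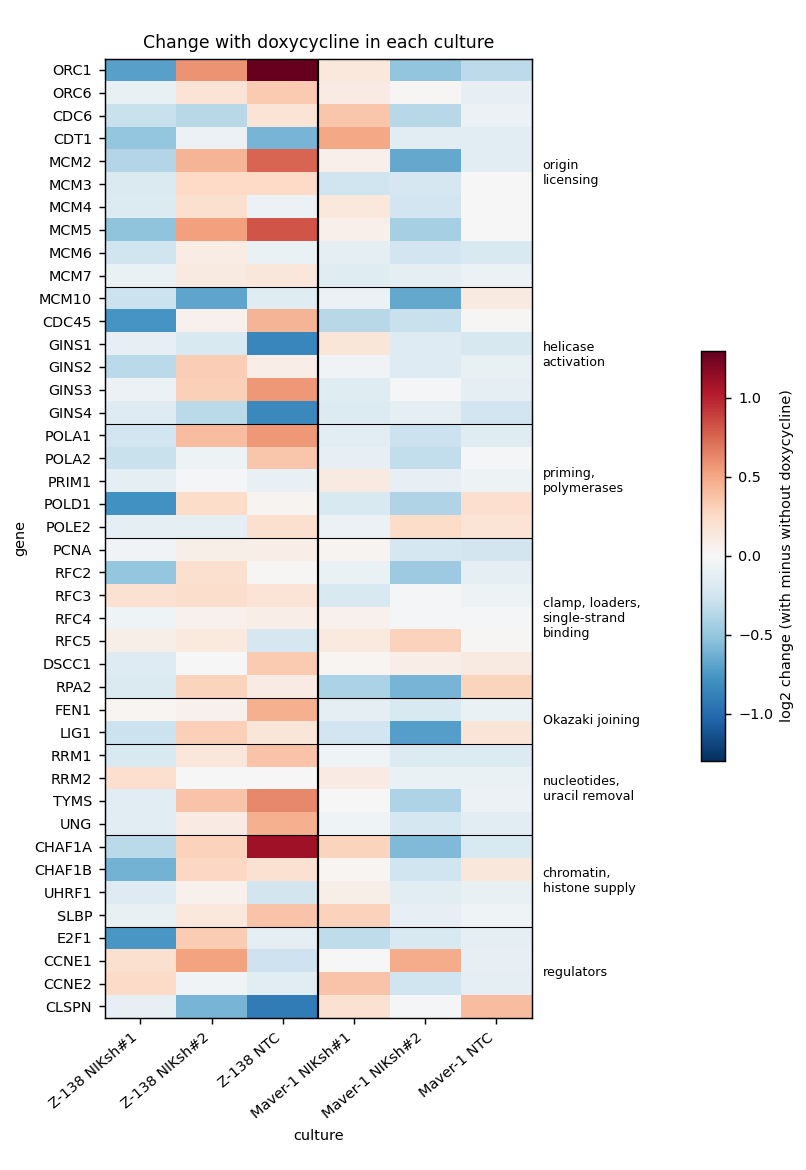
Log2 change with doxycycline of the 42 genes (rows, by role) in each of the 6 cultures (columns, Z-138 left of the line and Maver-1 right of it), with 1 pair of arrays per culture. Red is higher and blue lower with doxycycline. Z-138 NIKsh#1 and Maver-1 NIKsh#2 are mostly blue, with 36 and 37 of 42 genes below 0, and Z-138 NTC holds both the deepest red and the deepest blue cells.

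The cultures did not move together, and the 2 hairpins changed places between the lines. In Z-138, 36 of 42 genes were lower with doxycycline under NIKsh#1 (median -0.18, all genes -0.01), and 11 of 42 under NIKsh#2 (median 0.13, all genes 0.07). In Maver-1, 22 of 42 were lower under NIKsh#1 (median -0.01, all genes 0.01) and 37 of 42 under NIKsh#2 (median -0.20, all genes -0.03). In NTC cultures 14 of 42 were lower in Z-138 (median 0.15, all genes 0.07) and 30 of 42 in Maver-1 (median -0.08, all genes -0.02). Changes of at least 1.5-fold were found for 5 genes in Z-138 NIKsh#1, all lower, where 14.5% of all genes changed that far either way, and for 2 genes in Z-138 NIKsh#2, both lower, where 19.9% did. Maver-1 NIKsh#1 had 0 such genes (5.46% of all genes) and Maver-1 NIKsh#2 had 4, all lower (9.52%). In Z-138 NTC there were 5 higher and 4 lower genes, where 24.6% of all genes changed that far, and in Maver-1 NTC 0 (4.49%). Each of these counts rests on 1 pair of arrays and has no test.

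The NTC cultures give the effect of doxycycline and of a hairpin as such. None of the 42 genes passed (limma, smallest adjusted p = 0.895), nor did any of all genes (0%), and 1 of 42 genes had an unadjusted p under 0.05, against 3.35% of all genes. The median of the 42 genes was 0.08 (all genes 0.03), and -0.08 without Z-138 NTC. The largest values came from that culture. ORC1, the largest subunit of the origin recognition complex, was at 475 with and 192 without doxycycline in Z-138 NTC and at 188 and 239 in Maver-1 NTC. CHAF1A, the large subunit of chromatin assembly factor 1, was at 608 with and 283 without doxycycline in Z-138 NTC and at 367 and 422 in Maver-1 NTC. That rise belongs to the probe set used and was not shared by all. The other detected probe sets of CHAF1A changed by 0.57, -0.53 and -1.28 in Z-138 NTC. In Maver-1 NTC they changed by 0.06, 0.55 and 1.87. MCM5, a helicase subunit, was at 467 with and 264.5 without doxycycline in Z-138 NTC and at 539 and 536 in Maver-1 NTC. The means over the 2 cultures, 0.48 ± 0.39 for ORC1, 0.45 ± 0.30 for CHAF1A and 0.41 ± 0.27 for MCM5, therefore describe Z-138, and without that culture ORC1 stands at -0.34 and CHAF1A at -0.20. In the other direction GINS1, a GINS subunit, was at 788 with and 1421 without doxycycline in Z-138 NTC and at 1192 and 1373 in Maver-1 NTC. GINS4 was dim, at 44.4 with and 81.5 without doxycycline in Z-138 NTC and at 47.3 and 56.7 in Maver-1 NTC. CDT1, which loads the helicase with CDC6, was at 496 with and 756 without doxycycline in Z-138 NTC and at 495.5 and 543.5 in Maver-1 NTC. With the probe sets used, all 3 were lower with doxycycline in both NTC cultures. The means were -0.53 ± 0.16 for GINS1, -0.54 ± 0.25 for GINS4 and -0.37 ± 0.22 for CDT1, and none passed. For CDT1 this sign belongs to the probe set used. The other detected probe set of CDT1 was higher with doxycycline under NTC, by 0.44 (Z-138) and 0.018 (Maver-1). Z-138 NTC is also the culture in which the ACTB ratio differed most, 6.34 with and 2.33 without doxycycline, and the part of that difference in these values was not tested.

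The same arrays also gave the NIKsh change minus the NTC change. Here 0 of 42 genes passed (limma, smallest adjusted p = 0.884), as did 0% of all genes, and 3 of 42 had an unadjusted p under 0.05, against 5.43% of all genes. The median difference of the 42 genes was -0.16 (all genes -0.03), and it was 0.03 without the Z-138 NTC culture. With all cultures 29 of 42 were below 0, where 45.9% of all genes were above 0. The highest differences were 0.49 ± 0.20 for CCNE1, 0.45 ± 0.19 for GINS1 and 0.33 ± 0.31 for GINS4. For CCNE1 the mean with its other probe set, which was under the detection filter at a mean signal of 5.07, gave -0.11. The lowest differences were -0.60 ± 0.47 for ORC1, -0.57 ± 0.25 for CDC45 and -0.53 ± 0.37 for CHAF1A. ORC1 and CHAF1A stand among the lowest through Z-138 NTC, and without it they are at 0.21 and 0.12. For CHAF1A this rests on the probe set used, since its other detected probe sets changed by 0.57, -0.53 and -1.28 in Z-138 NTC. ORC1 in the NIKsh cultures had no common direction, at 159 with and 260.0 without doxycycline in Z-138 NIKsh#1, 246 and 163 in Z-138 NIKsh#2, 219 and 198 in Maver-1 NIKsh#1, and 162 and 232.5 in Maver-1 NIKsh#2. CHAF1A likewise was at 340.5 with and 434 without doxycycline in Z-138 NIKsh#1, 491 and 399 in Z-138 NIKsh#2, 485 and 398 in Maver-1 NIKsh#1, and 275 and 409 in Maver-1 NIKsh#2. The intervals were wide here, and 14 of 42 lay wholly within 1.5-fold.

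The NIKsh response was also compared between Z-138 and Maver-1. None of the 42 genes passed (limma, smallest adjusted p = 0.452), against 0.121% of all genes, and 2 of 42 had an unadjusted p under 0.05, against 8.59% of all genes. The median difference was 0.08 (all genes 0.035), and between -0.09 and 0.26 without single cultures. Without Z-138 NIKsh#1, which leaves 1 NIKsh culture of that line, 1 gene passed, TYMS, the enzyme that makes thymidylate, at 0.58 (limma, adjusted p = 0.0365). In that smaller set 423 of all 11548 genes (3.66%) passed, so 1 of 42 is no result about these genes, and the lone Z-138 culture is assumed to vary like the others, with 1 residual degree of freedom. RPA2, a subunit of the single-strand binding protein, had the highest difference at 0.56 ± 0.25 (limma, adjusted p = 0.577). Its signal was 407 with and 464.5 without doxycycline in Z-138 NIKsh#1 and 457 and 374 in Z-138 NIKsh#2. In Maver-1 it was 340 with and 454 without doxycycline in NIKsh#1 and 257 and 390 in NIKsh#2. Both Maver-1 changes of RPA2, -0.41 and -0.60, thus lay below both Z-138 changes, -0.19 and 0.29. How many of all genes are separated in this way was not counted, so this is no result about RPA2. LIG1, the ligase that seals Okazaki fragments, was at 125 with and 153 without doxycycline in Z-138 NIKsh#1, 214 and 173 in Z-138 NIKsh#2, 167 and 198.5 in Maver-1 NIKsh#1, and 97.1 and 161 in Maver-1 NIKsh#2. MCM2, a helicase subunit, was at 701 with and 915 without doxycycline in Z-138 NIKsh#1, 1145.5 and 844 in Z-138 NIKsh#2, 1106 and 1057 in Maver-1 NIKsh#1, and 684 and 1082 in Maver-1 NIKsh#2. For both genes the cultures of the 2 lines overlapped, with differences of 0.49 ± 0.33 for LIG1 and 0.32 ± 0.30 for MCM2. The sign for MCM2 turned to -0.09 without Z-138 NIKsh#2 and to -0.04 without Maver-1 NIKsh#2.

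On the lower side stood CDT1, CLSPN and CDC6. CDT1 was at 469.5 with and 664 without doxycycline in Z-138 NIKsh#1, 577 and 610.5 in Z-138 NIKsh#2, 662 and 467.5 in Maver-1 NIKsh#1, and 360 and 398 in Maver-1 NIKsh#2. CLSPN, the adaptor through which stalled forks activate the kinase CHK1, was at 512 with and 551 without doxycycline in Z-138 NIKsh#1, 297 and 451 in Z-138 NIKsh#2, 489 and 427 in Maver-1 NIKsh#1, and 511 and 517 in Maver-1 NIKsh#2. CDC6 was at 387.5 with and 473 without doxycycline in Z-138 NIKsh#1, 365 and 469 in Z-138 NIKsh#2, 526 and 410 in Maver-1 NIKsh#1, and 368 and 474 in Maver-1 NIKsh#2. The differences were -0.47 ± 0.27 for CDT1, -0.44 ± 0.24 for CLSPN and -0.32 ± 0.27 for CDC6, and none passed. With the probe sets used, both Z-138 changes of CLSPN lay below both Maver-1 changes, while CDT1 and CDC6 each had a single Maver-1 culture with a positive change. None of the other detected probe sets of CLSPN separated the lines in this way. The share of all genes so separated was not counted, so this is no result about CLSPN. With the ACTB ratio in the model the estimates were 0.73 for CDT1, 1.275 for CLSPN and 2.17 for CDC6, none of which passed. That fit has 1 residual degree of freedom. In NIKsh cultures the ratio rose with doxycycline in Z-138 (2.86 to 4.62, 2.92 to 5.09) and changed little in Maver-1 (4.68 to 4.32, 3.66 to 3.8). The fit can thus hardly separate ratio and line, and CDC6 changed by only -0.36 to 0.36 in single cultures. No reversal is read from it. The sign of CDT1 also turns to 0.13 with the mean of its probe sets.

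The lines themselves differed in more of the genes. Without doxycycline, 12 of the 42 genes were higher in Z-138 than in Maver-1 and 9 were lower (limma, adjusted p under 0.05, 3 cultures per line), where 25.5% of all genes passed as higher and 34.8% as lower. Against that background the counts are no result about the 42 genes as a set. The higher genes were MCM10, DSCC1, MCM4, CDT1, RFC2, POLD1, PRIM1, POLE2, RFC5, RFC3, UHRF1 and UNG, and the lower genes were MCM5, GINS2, MCM2, CCNE2, CCNE1, TYMS, POLA1, GINS3 and MCM7. The median over the 42 genes was -0.02 (all genes -0.08). The genotype and all else that separates these 2 tumours cannot be told apart with 1 line each. Leaving out 1 culture ended the call of POLD1, UHRF1 and UNG for at least 3 of the 6 cultures, that of POLA1 for Maver-1 NTC and NIKsh#1, and that of GINS3 for Maver-1 NTC.

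MCM10 had the largest difference. Its signal was 1012 in NIKsh#1, 921 in NIKsh#2 and 1064 in NTC of untreated Z-138, against 456, 423 and 406 in the same cultures of untreated Maver-1. The lines did not overlap, and the difference was 1.22 ± 0.09, or 2.32-fold (limma, adjusted p = 1.51e-07). DSCC1, a part of the alternative clamp loader that supports sister chromatid cohesion, was at 869, 772 and 725.5 in untreated Z-138 NIKsh#1, NIKsh#2 and NTC, and at 346, 335.5 and 368 in Maver-1. Its difference was 1.16 ± 0.10, or 2.24-fold (limma, adjusted p = 4.56e-07), but the mean with its other probe set, which was under the detection filter, gave 0.39 and did not pass. MCM4, a helicase subunit, was at 1874.5, 1584.5 and 2219 in untreated Z-138 NIKsh#1, NIKsh#2 and NTC, and at 1049, 1177 and 1057 in Maver-1. Its difference was 0.78 ± 0.11, or 1.71-fold (limma, adjusted p = 3.2e-05), again without overlap, and its other 3 detected probe sets gave 0.64 to 1.82. RFC2, a clamp loader subunit, averaged 924 ± 146 in Z-138 and 640 ± 22.6 in Maver-1 (SD, n = 3 each). PRIM1, the primase that starts each new strand, averaged 1136 ± 118 in Z-138 and 877 ± 80.1 in Maver-1. POLE2, an accessory subunit of polymerase epsilon, averaged 816 ± 85.1 in Z-138 and 647 ± 15.3 in Maver-1, and RFC5 averaged 1610 ± 121 in Z-138 and 1341 ± 61.6 in Maver-1. MCM4, MCM10, PRIM1, POLE2 and RFC5 were the 5 of the 21 genes that passed under each of the 16 alternatives run. The same share among all genes that passed was not counted, so this does not set the 5 apart.

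**Figure D3:**
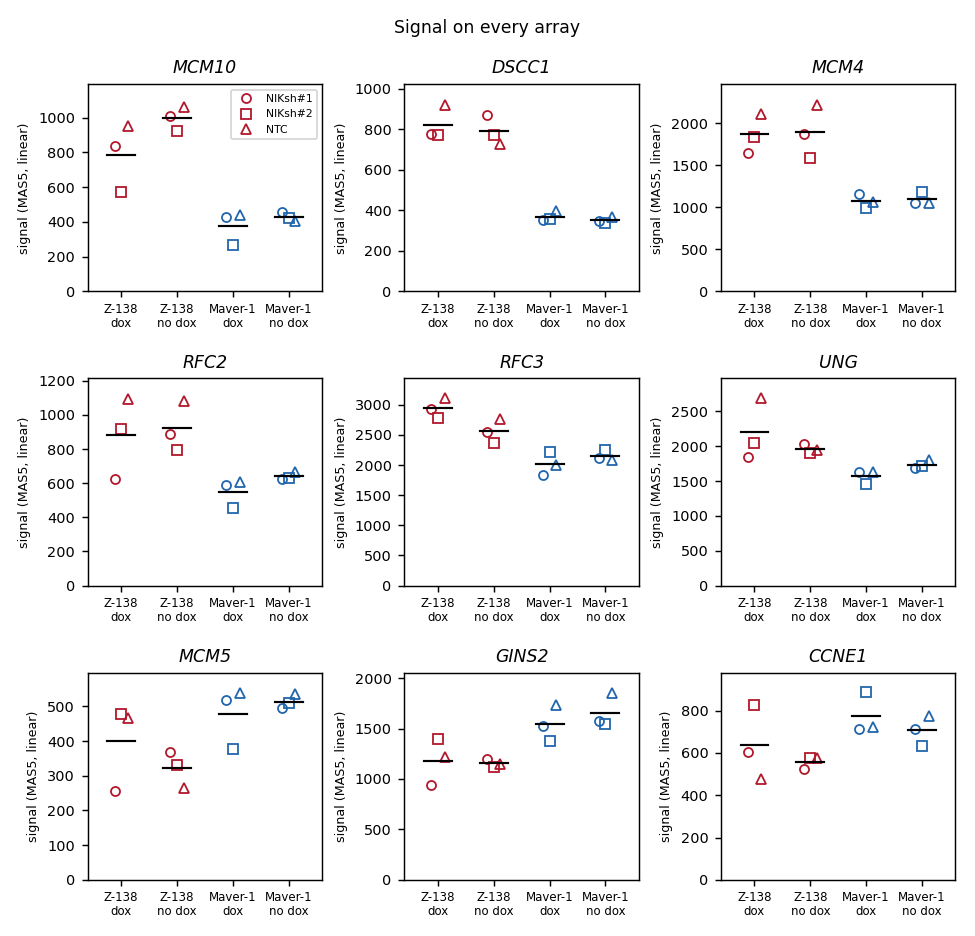
Linear MAS5 signal of 9 genes on every array, with Z-138 (red) left of Maver-1 (blue) and, within a line, arrays with doxycycline left of those without. Circles are NIKsh#1, squares NIKsh#2 and triangles NTC, and bars are means of 3 cultures. MCM10, DSCC1, MCM4, RFC3 and UNG are higher in every Z-138 array than in any Maver-1 array, while MCM5 and GINS2 are lower in Z-138 without doxycycline.

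Among the genes lower in Z-138, MCM5 came first. Its signal was 369.5, 331 and 264.5 in untreated Z-138 NIKsh#1, NIKsh#2 and NTC, against 496, 509 and 536 in Maver-1. The lines did not overlap, and the difference was -0.68 ± 0.12 (limma, adjusted p = 0.000364). GINS2 was at 1199, 1116 and 1145 in untreated Z-138 NIKsh#1, NIKsh#2 and NTC, against 1572, 1547 and 1856 in Maver-1, a difference of -0.52 ± 0.08 (limma, adjusted p = 0.000123). MCM2 was at 915, 844 and 869 in Z-138, against 1057, 1082 and 1300 in Maver-1, a difference of -0.38 ± 0.09 (limma, adjusted p = 0.00293). Cyclin E1 averaged 559 ± 30.8 in Z-138 and 707 ± 71.0 in Maver-1, and cyclin E2 averaged 776 ± 13.7 in Z-138 and 988 ± 52.1 in Maver-1 (SD, n = 3 each). Subunits of one complex thus stood on both sides. Within the helicase, MCM4 was higher and MCM2, MCM5 and MCM7 were lower in Z-138, while MCM3 at -0.10 and MCM6 at 0.15 did not pass. Within the polymerase alpha and primase complex, PRIM1 was higher at 0.37 and POLA1, the catalytic subunit, lower at -0.29. The clamp loader was more uniform, with RFC2, RFC3 and RFC5 higher and RFC4 at -0.01 with an interval of -0.15 to 0.12.

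The ACTB ratio also separated the untreated lines, at 2.33 to 2.92 in Z-138 and 3.66 to 6.88 in Maver-1. With that ratio in the model 8 of the 42 genes passed, all higher in Z-138, and 7 of these 8 were among the 21. Over all genes that model called 16.1% higher and 18.5% lower. None of the 9 genes lower in Z-138 passed in that model, where GINS2 stood at an adjusted p of 0.1 and MCM5 at 0.108 (limma).

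With doxycycline, 7 of the 42 genes were higher in Z-138 than in Maver-1 and 0 lower (limma, adjusted p under 0.05), where 17.3% of all genes passed as higher and 19.1% as lower. They were DSCC1, MCM10, MCM4, RFC2, RFC3, UNG and ORC6. The other arrays of the same cultures were used here, and 6 of the 7 genes had also passed without doxycycline, which is 6 of 7 of one list and 6 of 21 of the other. Of all genes 60.2% passed without doxycycline, and how many passed in both conditions was not counted. DSCC1 was at 775, 772 and 917 in treated Z-138 NIKsh#1, NIKsh#2 and NTC, against 352, 356 and 398.5 in Maver-1, a difference of 1.14 ± 0.14 (limma, adjusted p = 0.00026). MCM10 was at 834, 571 and 952 in treated Z-138, against 431, 267 and 440 in Maver-1, a difference of 1.05 ± 0.25 (limma, adjusted p = 0.00943). MCM4 was at 1651.5, 1834 and 2112 in treated Z-138, against 1155, 992 and 1063 in Maver-1, a difference of 0.80 ± 0.12 (limma, adjusted p = 0.00082). For these 3 genes the lines did not overlap in either condition, nor did they for PRIM1, POLE2, RFC2, RFC3, RRM2 and UNG. The share of all genes without overlap was not counted, so this is no result about the 42 genes. RFC3 was at 2924, 2780 and 3117 in treated Z-138, against 1842, 2220 and 1996.5 in Maver-1, a difference of 0.54 ± 0.09 (limma, adjusted p = 0.00176). UNG, the glycosylase that removes uracil from DNA, was at 1851, 2049 and 2690 in treated Z-138, against 1626, 1461 and 1623 in Maver-1. ORC6, a subunit of the origin recognition complex, averaged 1224 ± 119 in Z-138 and 967 ± 56.7 in Maver-1 (SD, n = 3 each), and its adjusted p of 0.0485 lay just inside the threshold (limma). The count of 7 was 12 without Z-138 NIKsh#1, where 36.2% of all genes passed in either direction, and 4 without any 1 of the 3 Maver-1 cultures, where 25 to 27.9% did. ORC6 and RFC2 lost their calls without any 1 culture other than Z-138 NIKsh#1, and UNG without any 1 of the Maver-1 cultures. MCM4 and RFC3 were the 2 of the 7 genes that passed under each of the 16 alternatives run, a share not counted for all genes.

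On the lower side with doxycycline, GINS2 was at 938, 1391 and 1217.6 in treated Z-138 NIKsh#1, NIKsh#2 and NTC, against 1525, 1376.5 and 1733 in Maver-1, and its difference of -0.40 ± 0.16 did not pass (limma, adjusted p = 0.0736). CLSPN, at -0.43 ± 0.22, and GINS1, at -0.36 ± 0.16, did not pass either. In all, 27 of the 42 genes had the same sign in both conditions, a count that was not made for all genes. MCM2, GINS3, POLA1 and TYMS were lower in Z-138 without doxycycline and had the opposite sign with it, at 0.13, 0.09, 0.14 and 0.15, none of which passed. With doxycycline the ACTB ratio was the higher one in Z-138, at 4.62 to 6.34, against 3.8 to 4.43 in Maver-1. With it in the model 7 of the 42 genes passed, 4 higher and 3 lower in Z-138, of which 3 were among the 7 named above, and the lower ones were GINS2, MCM2 and MCM5. Over all genes that model called 13.4% higher and 17.2% lower.

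**Figure D4:**
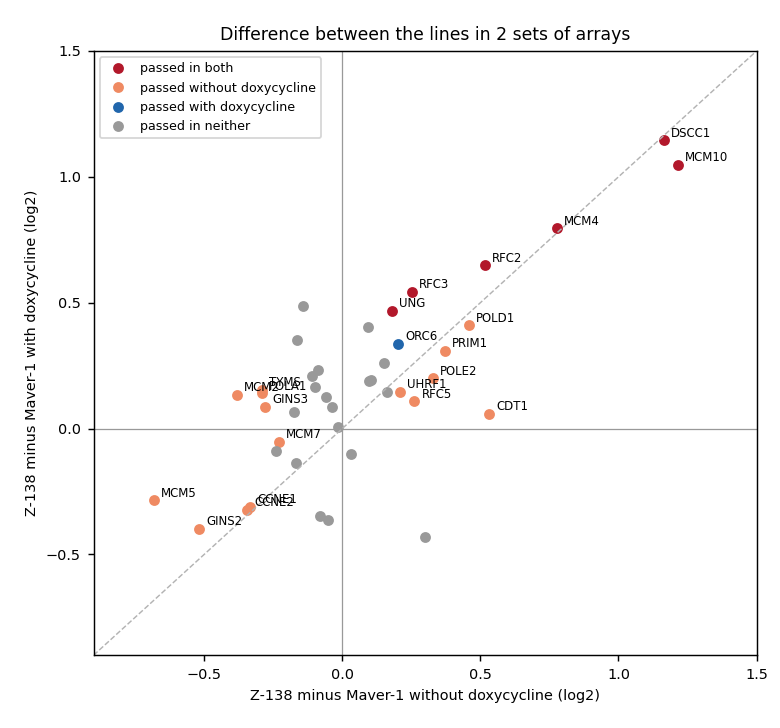
Difference of the 42 genes between Z-138 and Maver-1, without doxycycline on the horizontal axis and with it on the vertical axis (log2, limma, 3 cultures per line), with a dashed line of equal values. Colours give the comparison in which a gene passed. DSCC1, MCM10 and MCM4 lie far out near the dashed line in both, and MCM2, GINS3, POLA1 and TYMS lie left of 0 and above 0.

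Several probe sets allow a check of these signs. Of the 21 genes that passed without doxycycline, 12 had another probe set above the filter, and for 9 of these every other probe set had the same sign. The exceptions were CDT1, at 0.53 with the probe set used and -0.07 with the other, CCNE2, at -0.35 and 0.17, and TYMS, at -0.29 with others of -0.27 and 0.10. CHAF1A did not pass, but its probe set used gave -0.16 and its other 3 gave 0.17 to 1.43. For MCM10 the other 2 gave 0.94 and 1.33, beside 1.22, and for RFC3 they gave 0.55 and 0.99, beside 0.25. The E2F motif was present in the promoters of 3 of 10 genes higher, 4 of 7 lower and 6 of 19 not called between untreated lines.

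Other genes of replication and S phase entry were counted in the same way. Of 92 such genes listed, 87 had a probe set and passed the filter. None of the 87 passed for doxycycline in NIKsh, in NTC, for their difference or for the difference between lines in the NIKsh response. In NIKsh cultures the smallest p were those of MCM9 at -0.33 ± 0.11 and E2F7, a repressor of E2F targets, at 0.24 ± 0.08 (limma, adjusted p = 0.362 and 0.363). Between untreated lines 19 of the 87 were higher and 24 lower in Z-138, where 25.5% of all genes passed as higher and 34.8% as lower. With doxycycline 17 of the 87 were higher and 6 lower, where 17.3% of all genes passed as higher and 19.1% as lower. The CDK inhibitors CDKN1C and CDKN1A, which hold back S phase entry, had the largest values. CDKN1C was at 1653, 1651 and 1618 in untreated Z-138 NIKsh#1, NIKsh#2 and NTC, against 233, 262 and 243 in Maver-1, a difference of 2.73 ± 0.09 (limma, adjusted p = 4.07e-11). CDKN1A was at 1304, 1248 and 904 in untreated Z-138, against 263, 239 and 281 in Maver-1, a difference of 2.11 ± 0.13 (limma, adjusted p = 2.01e-08). With doxycycline they were higher in Z-138 by 2.04 ± 0.25 and 2.46 ± 0.20, and CDKN1B, a further inhibitor, by 0.93 ± 0.13. POLD3, an accessory subunit of polymerase delta, was lower in untreated Z-138 at -1.04 ± 0.07, and E2F5 at -1.64 ± 0.11 (limma, adjusted p = 4.7e-08 and 6.31e-08).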

How the data were processed

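Total RNA of 6 cultures, each with and without doxycycline, was amplified, labelled with biotin and read on Affymetrix 3′ arrays, per the labels' protocols. The deposited values are linear signal intensity per probe set, made by the authors with MAS5, per the submitters' processing notes. Detection calls were not used here. The trimmed mean, without 2% of probe sets at each end, was the same on all arrays, so no rescaling was done. Of 54675 probe sets, 41097 had 1 gene symbol, 1801 several and 11777 none in the annotation used. Signals were taken to log2(signal + 3), and 11548 of 19775 genes had a mean signal of at least 12.55. Changes were fitted over all 11548 genes with limma 3.58.1 in R 4.3.3 (intensity trend, two-sided moderated tests, Benjamini-Hochberg adjustment at 0.05), with culture as a block for doxycycline effects, because cells of each construct were plated in both conditions, per the labels' protocols. The deviations of the paired arrays correlated across genes at -0.04 (Z-138) and 0.20 (Maver-1). The steps were tested on simulated data. All 42 genes could be named, with values per array for the 3 highest and 3 lowest in each comparison. Of the other replication genes, up to 4 with the smallest p per comparison could be named. POLA2 and genes named for their role or stability were chosen after their values were seen. The genes, lists and tests were chosen with earlier results of these data known. The small number of arrays limits the precision. Alternatives changed the pseudocount (1, 16), the filter, the probe sets, the scaling, the weights, the block and the cultures, or added the ACTB ratio.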

Additional observations from a re-analysis of the deposited data

Results flagged for a closer look

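In 3 genes 1 of the 4 NIKsh cultures lay far from the other 3 by Dixon's criterion for a single outlier, which marks about 5% of groups by chance, and 42 groups were examined. CDC6 changed by 0.36 with doxycycline in Maver-1 NIKsh#1, against -0.36 to -0.29 in the other 3. MCM3, a helicase subunit, changed by 0.26 in Z-138 NIKsh#2, against -0.25 to -0.19. POLE2 changed by 0.24 in Maver-1 NIKsh#2, against -0.13 to -0.07.

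In a further 3 genes the NIKsh cultures of Z-138 all moved one way and those of Maver-1 all the other way. How many of all genes do so was not counted, so the 3 are no result about these genes. RFC3 was higher with doxycycline in both Z-138 cultures (0.19 and 0.23) and lower in both Maver-1 cultures (-0.20 and -0.02), a difference of 0.32 that did not pass in limma (adjusted p = 0.452). Its other 2 detected probe sets did not share this pattern, one at -0.12 and -0.07 in Z-138 and 0.13 and 0.10 in Maver-1, the other at -0.72 and -0.08 in Z-138 and -0.11 and 0.03 in Maver-1. FEN1, the nuclease that trims Okazaki flaps, was at 0.03 and 0.05 in Z-138 and at -0.12 and -0.20 in Maver-1, a difference of 0.20 (limma, adjusted p = 0.646). DSCC1 was at -0.17 and -0.001 in Z-138 and at 0.02 and 0.09 in Maver-1, a difference of -0.14 (limma, adjusted p = 0.876). It is counted here only through the sign of that -0.001.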

How the results depend on the processing

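Results were recomputed with another pseudocount, filter, probe set rule, scaling, weighting or block, with the ACTB ratio as a covariate, and without each culture. Counts of 0 called genes for doxycycline in NIKsh, in NTC and for their difference stayed 0 under every alternative. The cause of the changes below was not tested. With the mean of probe sets RFC5 in NIKsh cultures was at -0.08, CCNE1 for NIKsh minus NTC at -0.106, CDT1 for the line difference of the NIKsh change at 0.13, and the median line difference without doxycycline at 0.083. With the ACTB ratio as a covariate 8 genes passed between lines without doxycycline, all higher in Z-138, with a median of 0.047. Of all genes 16.1% passed there as higher and 18.5% as lower. The median with doxycycline was -0.105, where CLSPN was at 0.002. With the ratio in the model the line differences of the NIKsh change were 0.73 for CDT1, 1.275 for CLSPN and 2.171 for CDC6. None of these passed, and that fit had 1 residual degree of freedom. Median centring left 4 genes between lines with doxycycline, where 30.6% of all genes passed. It moved the median of all genes for NIKsh minus NTC to -0.154 and that of the 42 genes to -0.288.

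Without single cultures, the NIKsh change of CCNE2 ran from -0.017 to 0.193. The NTC changes ran from -0.202 to 1.096 for CHAF1A and from -0.338 to 1.297 for ORC1. For NIKsh minus NTC the median ran from -0.277 to 0.029, ORC1 from -1.42 to 0.214 and CHAF1A from -1.179 to 0.119. For the line difference of the NIKsh change the count ran from 0 to 1, CDC6 from -0.683 to 0.041 and MCM2 from -0.087 to 0.737. Between lines the count ran from 18 to 23 without doxycycline, where 54 to 58.8% of all genes passed. With doxycycline it ran from 4 to 12, where 25 to 38% of all genes passed.

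The replicate block for doxycycline effects is the culture. Without the block, or with culture as a random block, 0 of the 42 genes passed for doxycycline in NIKsh, in NTC, for their difference and for the line difference. A replicate block by construct gave 18 genes between lines without doxycycline, where 56.8% of all genes passed. With doxycycline it gave 7, where 37.7% of all genes passed, so it changed no count by over 1.5 times. It ended the calls of POLD1 (adjusted p = 0.0544), UNG (0.0927) and UHRF1 (0.057) without doxycycline and of ORC6 (0.0566) with it, and GINS1 passed as lower in Z-138 with doxycycline at -0.363 (limma, adjusted p = 0.0438).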
